A study of Caenorhabditis elegans with 2 samples.

Results

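The small nucleolar RNA (snoRNA) genes of Caenorhabditis elegans were examined for binding of ZTF-25, a zinc finger protein, by chromatin immunoprecipitation and sequencing. All 346 genes of the snoRNA biotype on the 6 nuclear chromosomes were taken from the Ensembl annotation of WBcel235, the assembly also called ce11, among 46890 annotated genes in all. Each gene body was extended by 200 bp on either side, and a gene was called marked when a peak summit of the authors' conservative list lay in that window. The rule that defines the genes uses their annotation and no binding value. They have 346 distinct sequences and the same coordinates and strand in RefSeq in 346 cases. The worms were of strain RW12287, in which CRISPR placed a TY1, EGFP and 3xFLAG tag at the ztf-25 locus on chromosome V (allele st12287), and an antibody to GFP was used. Whole young adults aged 63 hours, synchronised by L1 starvation after bleaching, gave 2 biological replicates of 1 group, so tissues cannot be told apart. No untagged or input sample was analysed here, the files hold peaks and no read counts, and the depth behind each value is therefore unknown.

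snoRNAs guide chemical modification of other RNAs in the nucleus. Those of the C/D class direct ribose methylation and those of the H/ACA class direct pseudouridylation, mainly of ribosomal RNA and spliceosomal small nuclear RNA. Many animal snoRNAs are cut from introns of host genes, while others are transcribed from promoters of their own. Transfer RNA genes carry an A box and a B box inside the gene, which recruit RNA polymerase III, and that polymerase stops at runs of T.

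The sequences that carry the main pattern lie just before the 5′ ends of marked genes. Shown first are 6 marked genes that hold a pair of words resembling these boxes, taken by signal among those on chromosomes II to V and X. The A word was TGG, 3 bases of any kind, A, 2 bases of any kind and GG, with up to 1 mismatch, and the B word was GTTCNANNC without mismatch, 20 to 80 bases further on. Capitals mark the A word and then the B word. Each line is a 140-base stretch read 5′ to 3′ on the gene's own strand, 110 bases before the 5′ end and the first 30 of the gene, from the RefSeq sequence of WBcel235.
T03F7.8: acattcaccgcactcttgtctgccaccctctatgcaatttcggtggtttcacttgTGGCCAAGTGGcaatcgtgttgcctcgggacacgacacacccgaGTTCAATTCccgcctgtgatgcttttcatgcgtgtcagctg
W03C9.9: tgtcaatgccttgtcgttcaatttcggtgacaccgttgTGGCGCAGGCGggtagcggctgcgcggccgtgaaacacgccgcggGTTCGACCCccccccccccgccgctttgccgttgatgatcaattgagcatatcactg
C51F7.3: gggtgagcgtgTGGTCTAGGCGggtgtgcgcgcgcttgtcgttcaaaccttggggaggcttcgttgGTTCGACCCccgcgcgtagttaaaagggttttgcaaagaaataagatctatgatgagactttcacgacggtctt
F32E10.10: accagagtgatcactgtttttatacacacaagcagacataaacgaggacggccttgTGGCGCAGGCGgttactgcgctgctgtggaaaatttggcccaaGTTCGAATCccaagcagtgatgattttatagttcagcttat
C41C4.11: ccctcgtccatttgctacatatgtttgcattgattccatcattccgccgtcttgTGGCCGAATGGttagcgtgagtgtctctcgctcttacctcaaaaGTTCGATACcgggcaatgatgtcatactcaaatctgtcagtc
Y75B12B.12: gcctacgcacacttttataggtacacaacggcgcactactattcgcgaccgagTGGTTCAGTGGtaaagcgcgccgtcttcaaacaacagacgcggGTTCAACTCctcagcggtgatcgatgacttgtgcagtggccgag
These lines come from chrV:11314148-11314287, chrII:11960788-11960927, chrV:12303598-12303737, chrIV:7574012-7574151, chrII:8107241-8107380 and chrV:15191064-15191203, in the order printed, with C41C4.11 and Y75B12B.12 on the minus strand. Both words printed for C51F7.3 lie inside the body of a neighbouring snoRNA gene, C51F7.4, at chrV:12303599-12303693.

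A second word, called the P word here, was AACCCG, then 5 bases of any kind, then TGTCGG, with up to 1 mismatch. The next 3 lines are from 3 of the 7 marked genes that hold it, taken by signal among those on chromosomes II to V and X, and capitals mark the P word.
ZK994.7: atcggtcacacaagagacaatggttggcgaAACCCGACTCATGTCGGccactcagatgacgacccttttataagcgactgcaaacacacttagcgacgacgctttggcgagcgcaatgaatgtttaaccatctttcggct
C16D9.11: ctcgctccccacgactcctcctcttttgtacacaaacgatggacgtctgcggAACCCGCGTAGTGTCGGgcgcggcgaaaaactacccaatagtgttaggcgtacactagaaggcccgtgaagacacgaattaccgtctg
T26A8.6: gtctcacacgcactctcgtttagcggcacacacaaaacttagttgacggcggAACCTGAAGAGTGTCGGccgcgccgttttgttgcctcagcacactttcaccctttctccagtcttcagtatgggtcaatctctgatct
They come from chrV:8500469-8500608 on the plus strand and from chrV:8228940-8229079 and chrIV:8428710-8428849 on the minus strand. The following 3 genes hold a pair or an exact P word and were not marked, and they are printed to show that the letters alone did not separate the groups. Their signals in the authors' ranked list were 86.5, 69.6 and 80.6, in the order printed, all above the lowest of a marked gene, 67.3. Their irreproducible discovery rates were 0.0268, 0.012 and 0.0353, and 59 snoRNA genes had a summit at a rate of 0.01 or lower in that list. Some other unmarked genes with an A word and an exact B word had higher rates, such as 0.133 at R166.7 and 0.387 at ZC395.12.
C05D2.15: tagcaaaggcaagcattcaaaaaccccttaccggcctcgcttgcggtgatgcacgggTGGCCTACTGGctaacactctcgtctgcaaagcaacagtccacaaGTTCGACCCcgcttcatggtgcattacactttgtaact
T24H7.6: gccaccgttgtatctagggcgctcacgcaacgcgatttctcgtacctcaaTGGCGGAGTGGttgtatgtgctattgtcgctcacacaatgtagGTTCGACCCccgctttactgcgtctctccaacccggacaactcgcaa
Y67A10A.14: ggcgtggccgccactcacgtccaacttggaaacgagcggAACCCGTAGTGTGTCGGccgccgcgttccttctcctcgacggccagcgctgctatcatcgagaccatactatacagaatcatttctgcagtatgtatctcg
In the stretches of C05D2.15 (chrIII:5602150-5602289, minus strand) and T24H7.6 (chrII:6248607-6248746, plus strand) capitals mark the A and B words. In that of Y67A10A.14 (chrIV:14327092-14327231, minus strand) they mark the P word.

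The RNAs themselves are shown for marked members of both guide classes. In the first 2 genes below, capitals mark a C box word (TGATGA with up to 1 mismatch) and a D box word (CTGA), and in the last they mark the ACA of the H/ACA class.
T03F7.8: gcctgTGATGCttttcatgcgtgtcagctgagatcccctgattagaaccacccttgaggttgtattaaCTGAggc
W03C9.9: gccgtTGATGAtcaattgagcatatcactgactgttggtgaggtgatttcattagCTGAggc
C10C6.8: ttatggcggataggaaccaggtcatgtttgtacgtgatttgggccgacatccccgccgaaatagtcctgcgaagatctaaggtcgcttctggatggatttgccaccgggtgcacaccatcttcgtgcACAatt
T03F7.8 lies at chrV:11314258-11314332 on the plus strand, W03C9.9 at chrII:11960898-11960959 on the plus strand and C10C6.8 at chrIV:11474059-11474191 on the minus strand.

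In the conservative list, which holds 1092 peaks, 59 of 346 snoRNA genes were marked (17.1%, exact 95% interval 13.2 to 21.4%). Among all annotated genes treated in the same way 3.07% were marked, and among genome tiles of 530 bp, the median width of a snoRNA window, 0.568% held a summit. The intervals here cover the counting of genes only. The combined list of 1368 peaks marked 59 as well, of which 56 were in both lists, against 3.74% of all annotated genes. Replicate 1 alone, with 515 peaks, marked 44 snoRNA genes (12.7%) against 1.68% of all genes, and replicate 2 alone, with 295 peaks, marked 31 (8.96%) against 0.915%. Of the 59 genes, 44 were also marked in the list of at least 1 replicate, 27 genes were marked in the lists of both, and 15 of the 59 were in neither. At an irreproducible discovery rate (IDR) of 0.1 or lower in the authors' ranked list, 86 genes (24.9%) had a summit, where all annotated genes reached 10%.

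The 59 marked genes shared 58 peaks at their highest summits. Their signal, the authors' own peak value without a stated scale, ran from 67.3 to 336 with a median of 138, and the median of all conservative peaks was 93.9. Of 104189 peaks in the ranked list, those at 17 of the marked genes stood among the 100 with the highest signal. Replicate 1 gave the higher signal of the libraries at 51 of the 58 marked genes with a value in both replicates, with a median ratio of 1.40. Since the scale of each library is not known, that ratio is a description of these peak lists. The order of the genes was similar in both replicates (Spearman's rho 0.795 across 58 genes, which share their libraries and are not independent replicates).

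**Figure D1:**
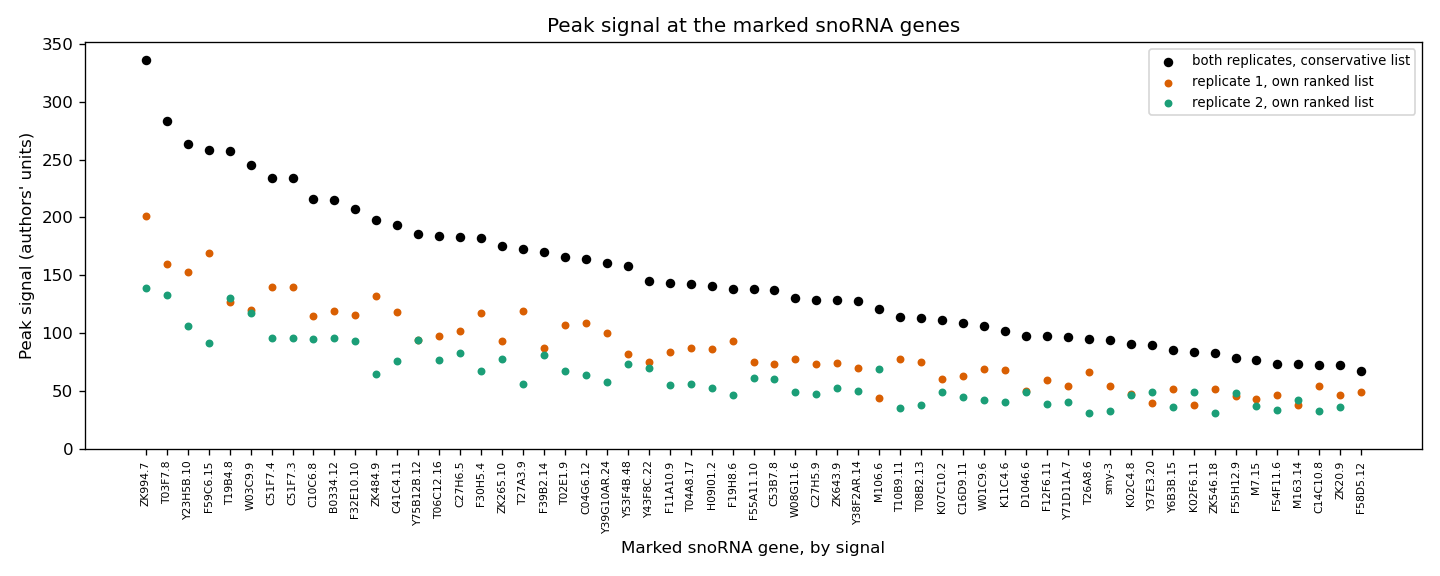
Peak signal in the authors' units (y axis) at each of the 59 marked snoRNA genes (x axis, ordered by signal), with black points for the conservative list and coloured points for each replicate's own ranked list. Signal falls from 336 at ZK994.7 to 67.3 at F58D5.12, and F58D5.12 has no point for replicate 2.

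The highest signal belonged to ZK994.7, a 67-bp gene at chrV:8500579-8500645 in an intron of pxn-1, which encodes a peroxidasin. Its signal was 336 in the conservative list, 201 in replicate 1 and 139 in replicate 2, each of them the highest of any marked snoRNA gene. The summit lay 12 bp before its 5′ end. T03F7.8, a C/D-class gene on the strand opposite its host cutl-18, had signals of 283 in the conservative list, 160 in replicate 1 and 133 in replicate 2. W03C9.9, an intergenic C/D-class gene of 62 bp, had 245 in the conservative list, 120 in replicate 1 and 117 in replicate 2. C10C6.8, an H/ACA-class gene in an intron of catp-8, which encodes a cation-transporting ATPase, had 216 in the conservative list, 115 in replicate 1 and 94.7 in replicate 2. All 4 genes were marked in the list of each replicate alone.

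On chromosome I, Y23H5B.10, F59C6.15 and T19B4.8, all intergenic, had conservative signals of 263, 258 and 257. Replicate 1 gave them 153, 169 and 127, and replicate 2 gave 106, 91.2 and 130. T19B4.8 was the one with the lower value in replicate 1. ZK484.9, inside an intron of the ABC transporter gene haf-9 on the opposite strand, had 198 in the conservative list, 132 in replicate 1 and 64.8 in replicate 2. F32E10.10 on chromosome IV, intergenic, had 207 in the conservative list, 116 in replicate 1 and 93.4 in replicate 2. Each of these 5 genes was in the list of both replicates, as were all 20 marked genes with the highest signal.

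At the other end, F58D5.12 had the lowest conservative signal, 67.3, with 49.1 in replicate 1 and no ranked summit in its window in replicate 2. Marked genes per chromosome were 14 of 74 on I, 16 of 71 on II, 4 of 54 on III, 9 of 59 on IV, 14 of 55 on V and 2 of 33 on X. The 2 marked genes on X were C53B7.8, with a signal of 137, and M163.14, with 73.1. The shares ran from 6.06% on X (0.743 to 20.2%) to 25.5% on V (14.7 to 39%), with intervals that overlap.

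Placement relative to protein-coding genes was compared next. Intronic snoRNA genes, with the body inside an intron of a host on the same strand, were marked in 19 of 143 cases (13.3%, 8.19 to 20%). Intergenic ones, which overlap no protein-coding gene, were marked in 26 of 124 cases (21%, 14.2 to 29.2%). Those in an intron of a gene on the opposite strand were marked in 7 of 27 cases (25.9%, 11.1 to 46.3%), and the rest, which touch exons or gene ends, in 7 of 52 (13.5%, 5.59 to 25.8%). The intervals of all 4 classes overlap. In replicate 1 alone the intronic share was 9.09% and the intergenic share 15.3%, and in replicate 2 alone they were 6.99% and 10.5%. The median signal of the marked genes was 128 for intronic, 139 for intergenic and 164 for antisense intronic genes.

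**Figure D2:**
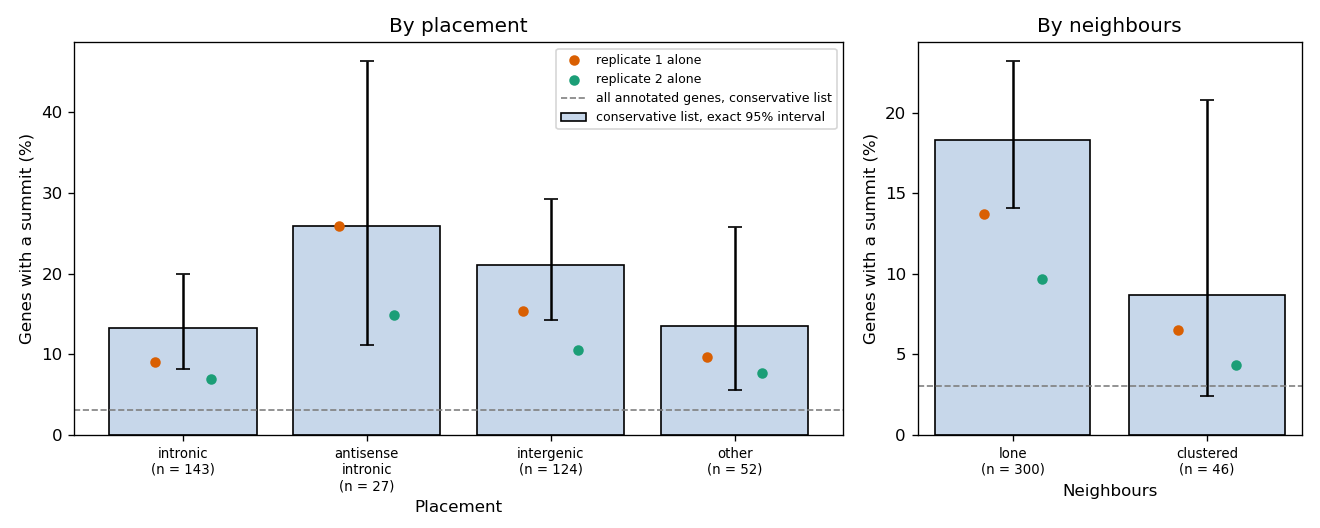
Share of snoRNA genes with a summit in their window (y axis, percent) by placement (left) and by neighbours (right), with bars for the conservative list, error bars for the exact 95% interval, points for each replicate alone and a dashed line at 3.07% for all annotated genes. The intergenic bar (21%) stands above the intronic bar (13.3%) in each list, and their intervals overlap.

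For intronic genes, the summit was at the snoRNA gene more often than in a window of the same width before its host. Of 143 intronic genes, 17 (11.9%, 7.08 to 18.4%) had a summit in the 200 bp before their own 5′ end. A summit in the 200 bp before an annotated 5′ end of the host was found for 3 (2.1%, 0.435 to 6.01%), 123 had neither, and 0 had both. Replicate 1 alone gave 9.09% for the own upstream window and 1.4% for the host window, and replicate 2 alone gave 6.99% and 2.1%. Among all protein-coding genes, 0.551% had a summit in the 200 bp before the outermost 5′ end of the gene. That value is not directly comparable, since the host window was set before every annotated 5′ end and snoRNA genes were counted. Counted by host, 2 of 124 hosts had a summit in that window. Of 1051 other introns in the same hosts, 11 held a summit, or 1.05%, and among those of at least 200 bp the share was 1.74%. In all 19 marked intronic genes the summit lay inside the host intron itself.

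The 3 genes with a summit at the host promoter were C06A1.8 and C06A1.9 in cdc-48.1, which encodes an AAA ATPase, and Y92C3B.4 in uaf-1, which encodes the large subunit of the splicing factor U2AF. The cdc-48.1 summit had a signal of 174 and lay 173 bp before the host's 5′ end. The uaf-1 summit had a signal of 100 and lay 42 bp before it. None of these 3 snoRNA genes was marked at its own window. With the host window widened to 1000 bp before and 500 bp after any annotated 5′ end, 16 intronic genes in 12 hosts qualified (11.2%), 4 of them marked. Leaving out summits that lay in the window of a snoRNA gene of that host, 13 genes in 9 hosts remained, 1 of them marked. In the combined list the narrow window held a summit for 9 genes (6.29%), above the interval of 0.435 to 6.01% from the conservative list.

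Ribosomal protein hosts, taken only as genes with an rpl or rps name, held 19 intronic snoRNA genes in 13 hosts. Of these, 0 of 19 were marked (interval up to 17.6%). In other hosts 19 of 124 were marked (15.3%, 9.48 to 22.9%), and the 2 intervals overlap. At an IDR of 0.1 or lower in the ranked list 4 of 19 (21.1%) and 29 of 124 (23.4%) had a summit. The wide promoter window of rpl-15, host of K11H12.12 and K11H12.13, held a summit with a signal of 297, 347 bp before the host's 5′ end. The ranked signals at those snoRNA genes were 29.9 and 36. The 4 members in nol-56, which encodes a core protein of C/D-class particles, had ranked signals from 29.6 to 62.2 and were not marked.

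Marked intronic genes began 74 to 5109 bp from the 5′ end of their intron, with a median of 167 bp, and the median for unmarked ones was 114 bp, with a lowest value of 6 bp. Of 62 intronic genes that began within 100 bp of the 5′ end of the intron 3 were marked, and of the 81 that began further in 16 were. Intron lengths had medians of 334 bp for marked and 392 bp for unmarked genes. Among the intronic genes with the highest signals, C51F7.3 in the FERM-domain gene frm-7 had 234, and C27H6.5 in unc-41, which acts in synaptic vesicle recycling, had 183. Replicate 1 gave these genes 140 and 102, and replicate 2 gave 95.7 and 82.6.

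Lone snoRNA genes were compared with those in clusters. A gene was lone when no other snoRNA body lay within 1000 bp, and 55 of 300 lone genes were marked (18.3%, 14.1 to 23.2%). In 21 clusters with 46 members, 18 of them pairs and the largest of 4, 4 genes were marked (8.7%, 2.42 to 20.8%), and the intervals overlap. Marked members were in 3 clusters. C51F7.4 and C51F7.3 lie in tandem on chromosome V and share a single summit with a signal of 234, which is 73 bp before C51F7.3 and 36 bp inside C51F7.4. C27H5.9, in an intron of pdl-1 on the opposite strand, had a signal of 129, while no ranked summit lay in the window of its neighbour C27H5.10. F58D5.12 was marked, and its neighbour F58D5.11 had a ranked signal of 37.3.

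Summits lay just upstream of the genes. The median summit position was -36 bp from the 5′ end, with quartiles of -51 and -11.5 bp and a range from -183 to 260 bp. Of 59 summits 47 lay upstream, 43 of them within 100 bp, 7 lay within the gene and 5 beyond its 3′ end. In the lists of single replicates the median was -46.5 bp over 44 genes in replicate 1 and -41 bp over 31 genes in replicate 2. The positions are those of the authors' summits, and 276 bp was the median width of their peaks at these genes.

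The 4 summits farthest from a 5′ end had low signals. They were at F58D5.12 (260 bp inward, past the gene's 3′ end), F55H12.9 (199 bp), F54F11.6 (186 bp) and M7.15 (183 bp upstream), with signals of 67.3, 78.3, 73.4 and 76.4. None of the 4 but F55H12.9, which was in the list of replicate 2, was in a list of a single replicate. B0334.12, on the strand opposite the potassium channel gene twk-5, was different. Its summit lay 119 bp from the 5′ end of a gene of 70 bp, with a signal of 215 in the conservative list, 119 in replicate 1 and 95.9 in replicate 2. No pair of words lay upstream of it, but a search of either strand found an A word and an exact B word within 100 bp of its summit. Of the 14 marked genes with none of the words, B0334.12 was the only 1 where that search found a pair. The signals of these 14 genes ran from 67.3 to 263, with a median of 95.2, and 9 of their summits lay upstream. The highest was at Y23H5B.10, with its summit 37 bp before the 5′ end.

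**Figure D3:**
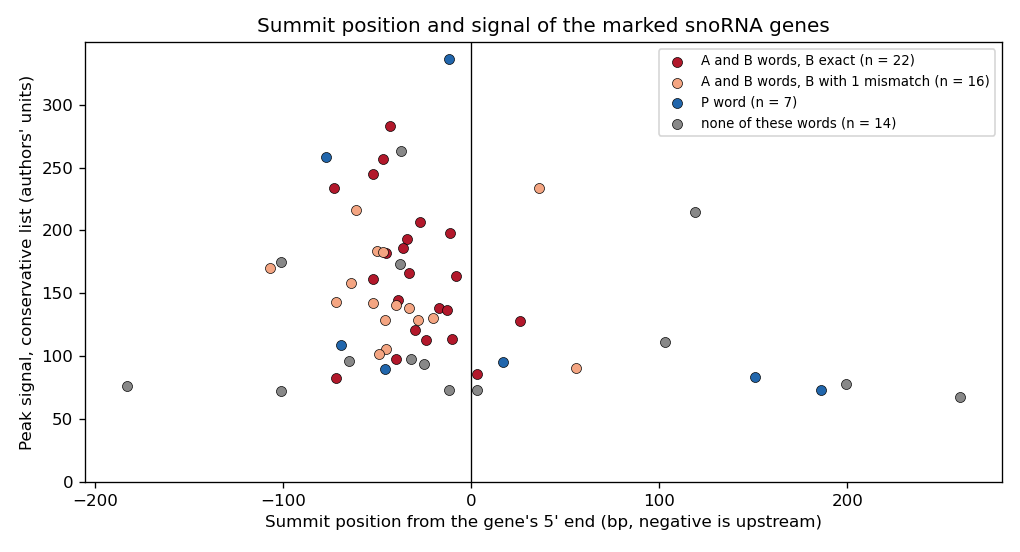
Position of each summit from the 5′ end of its snoRNA gene in bp (x axis, negative is upstream) against its signal in the conservative list in the authors' units (y axis), coloured by the word found upstream. Of 59 points 43 lie within 100 bp upstream, and of the points over 100 bp downstream only B0334.12 (215) lies above a signal of 120.

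The words printed above were counted in every gene. They were chosen after the upstream sequences of marked genes had been seen, so the counts are descriptions. An A word followed by an exact B word on the gene's strand, between 200 bp before and 30 bp after the 5′ end, was present in 22 of 59 marked genes (37.3%) and in 7 of 287 unmarked ones (2.44%). The same window of 19973 protein-coding genes held it in 0.3%, and that of 129 small nuclear RNA genes in 9.3%. In 612 tRNA genes the body itself held it in 84.3%. On the opposite strand of the snoRNA windows there was no such pair in any of 346 genes. With 1 mismatch allowed in each word, pairs were found in 39 of 59 marked and 49 of 287 unmarked genes, and in 5.49% of protein-coding genes. On the opposite strand such looser pairs were found in 13 of 59 marked and 27 of 287 unmarked genes, and in 8.73% of protein-coding genes.

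Read the other way, 22 of 29 genes with an A word and an exact B word were marked (75.9%, 56.5 to 89.7%). The share was 65.5% in replicate 1 alone and 51.7% in replicate 2 alone. Where the B word had 1 mismatch 16 of 57 were marked (28.1%, 17 to 41.5%), leaving out genes with a P word, and the share was 28.1% in replicate 1 alone and 14% in replicate 2 alone. Of the 228 genes with neither a pair nor a P word 14 were marked (6.14%, 3.4 to 10.1%). For these the share was 1.75% in replicate 1 alone and 2.63% in replicate 2 alone, beside the 1.68% and 0.915% of all annotated genes in those lists. At an IDR of 0.1 or lower in the ranked list, 25 of the 29 genes with an exact B word had a summit (86.2%). The shares at that level were 36.8% where the B word had 1 mismatch, 10.5% with none of the words and 10% for all annotated genes. Among intronic genes with an exact B word 7 of 11 were marked, and among intergenic ones 10 of 11. Of genes with none of the words, 2 of 94 intronic and 8 of 80 intergenic ones were marked.

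The pairs were alike in place and spacing. In the 29 genes with an exact B word, the A word began at a median of -57 bp and the B word at a median of -14 bp from the 5′ end, with a median of 33 bases between them and quartiles of 33 and 34. The summit lay between the start of the A word and the end of the B word in 19 of 22 such marked genes, and in 31 of 39 when mismatches were allowed in both. GGTTCGA, a B box word other than the B word used above, was also counted in either strand of the 200 bp before the gene. It was in 8 of 59 marked genes (13.6%, 6.04 to 25%), in 9 of 287 unmarked ones (3.14%) and in 0.846% of protein-coding genes. The B word itself, GTTCNANNC, in either strand was in 25 of 59 marked (42.4%) and 19 of 287 unmarked genes (6.62%).

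**Figure D4:**
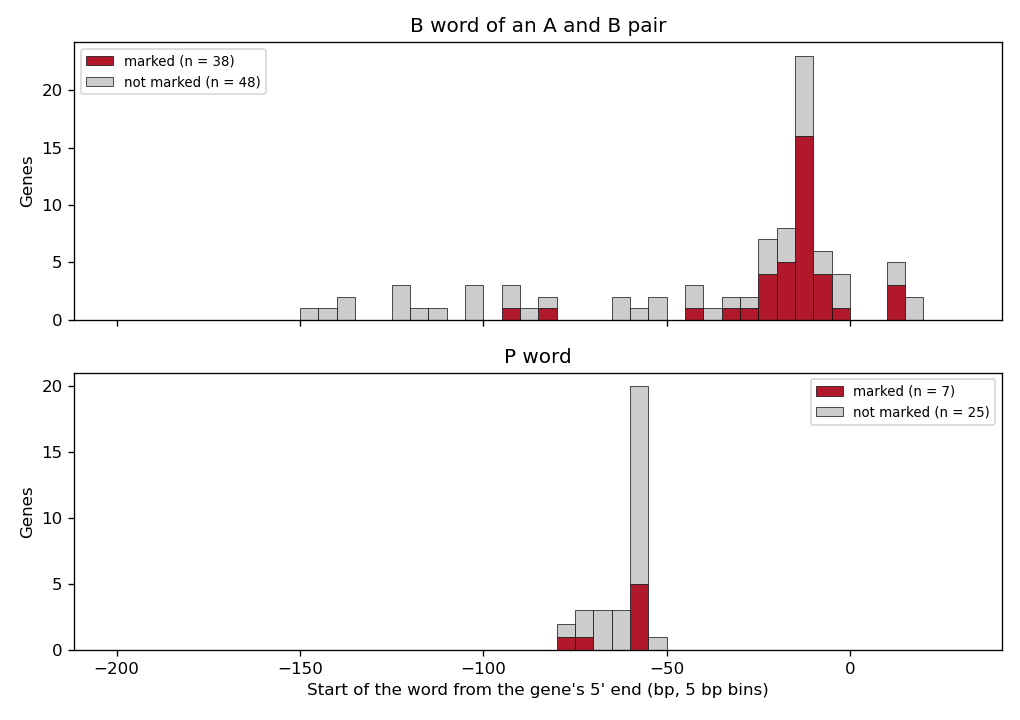
Number of snoRNA genes (y axis) by the start of a word from the 5′ end in bins of 5 bp (x axis), for the B word of a pair with up to 1 mismatch in each word (top, genes with a P word left out) and for the P word (bottom), with marked genes in red and unmarked genes in grey. B words of marked genes crowd around -14 bp, and P words around -59 bp whether or not the gene was marked.

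A run of 5 T within 25 bases after the annotated 3′ end was present in 31 of 59 marked genes (52.5%, 39.1 to 65.7%) and in 49 of 287 unmarked ones (17.1%, 12.9 to 21.9%). The same run followed 81.5% of tRNA genes and 24.9% of protein-coding genes. Of genes with a pair of words, up to 1 mismatch in each, 24 of 38 with the T run were marked and 15 of 50 without it.

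The P word showed another pattern. It was found upstream of 32 snoRNA genes, 29 of 129 small nuclear RNA genes (22.5%) and 0.12% of protein-coding genes. Its start was at a median of -59 bp in snoRNA genes and at a median of -59 bp in small nuclear RNA genes. Of the 32 snoRNA genes 7 were marked (21.9%, 9.28 to 40%), 5 in replicate 1 alone and 2 in replicate 2 alone. At an IDR of 0.1 or lower in the ranked list 16 of 32 had a summit (50%, 31.9 to 68.1%). Only 2 genes held both a P word and a pair of words.

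The 7 marked genes with a P word had signals that ranged from 73.4 to 336, with a median of 95.3, against a median of 163 for the 22 with an exact B word. ZK994.7 and F59C6.15 were the highest of them. C16D9.11, in an intron of rol-3, which encodes a receptor tyrosine kinase, had 109 in the conservative list, 62.5 in replicate 1 and 44.5 in replicate 2. T26A8.6 had 95.3 in the conservative list, 66.1 in replicate 1 and 31.1 in replicate 2. Those levels were below the ones of ZK994.7 in every list. The summits of the 7 genes were not all at the P word. Their median position was -12 bp from the 5′ end, with quartiles of -57.5 and 84 bp, while their P words began at a median of -58 bp. At K02F6.11 and F54F11.6 the summits lay 151 and 186 bp past the 5′ end.

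Length also differed between marked and unmarked genes. The median annotated length was 87 bp for marked and 133 bp for unmarked genes. Of 93 genes under 100 bp 34 were marked (36.6%, 26.8 to 47.2%), and of 253 longer ones 25 were (9.88%, 6.5 to 14.2%), intervals that do not overlap. Replicate 1 alone gave 31.2% and 5.93%, and replicate 2 alone 22.6% and 3.95%. Genes of 60 to 79 bp were marked in 27 of 51 cases (52.9%). Under 100 bp, all 16 genes with an A word and an exact B word were marked, while of those with none of the words 9 of 48 were. At 100 bp or longer, the counts were 6 of 13 and 5 of 180. Length classes and words were set after the marked genes had been seen.

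By guide class, 15 of 44 genes with C and D box words were marked (34.1%, 20.5 to 49.9%) and 13 of 85 with an ACA near the 3′ end and a length of 100 bp or more (15.3%, 8.4 to 24.7%). The other 217 genes, 31 of them marked, met neither definition. The C/D-class share was 34.1% in replicate 1 alone and 22.7% in replicate 2 alone, and the H/ACA-class share was 10.6% and 5.88%. At an IDR of 0.1 or lower they were 43.2% and 28.2%, with intervals that overlap, as they do in the conservative list. Among C/D-class genes 9 of 15 intergenic and 5 of 21 intronic genes were marked. H/ACA-class genes were marked in 5 of 19 intergenic and 6 of 55 intronic cases. The C/D-class genes had a median length of 78.5 bp and the H/ACA-class ones of 133 bp, and among genes under 100 bp 14 of 34 of the C/D class and 20 of 59 of neither class were marked.

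**Figure D5:**
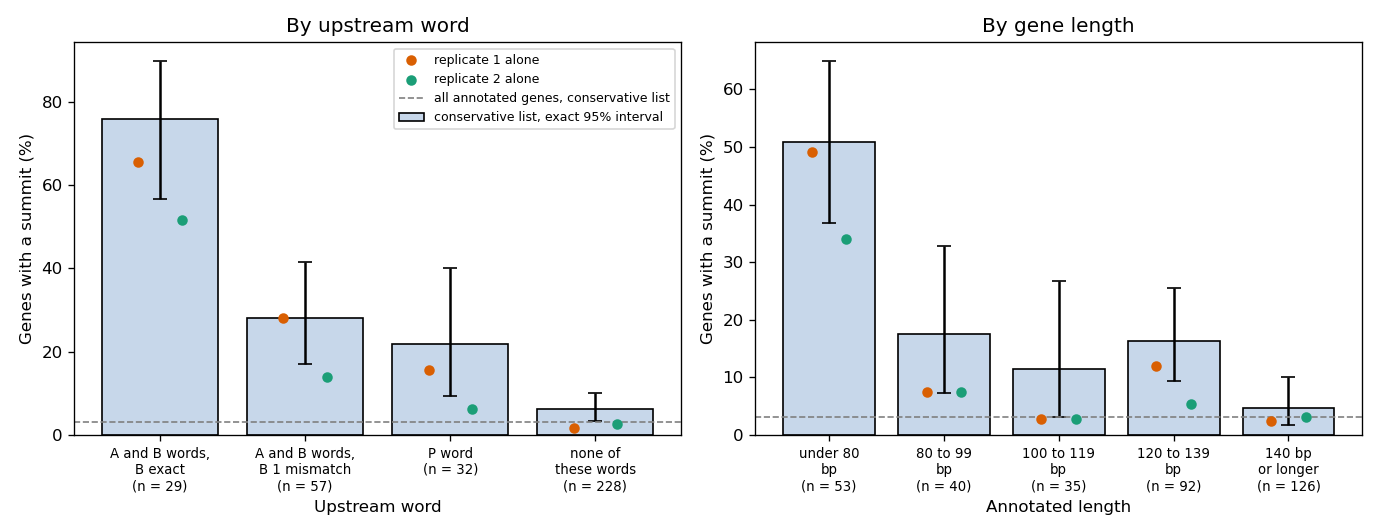
Share of snoRNA genes with a summit in their window (y axis, percent) by upstream word (left) and by annotated length (right), with bars for the conservative list, error bars for the exact 95% interval, points for each replicate alone and a dashed line at 3.07% for all annotated genes. The bar for an A word with an exact B word (75.9%) is the tallest on the left, and that for genes under 80 bp (50.9%) is the tallest on the right.

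Most unmarked genes still had a summit in the ranked list, as did most annotated genes. A summit of the ranked list, which has no threshold, lay in the window of 254 of 346 snoRNA genes, marked ones included, where 58.1% of all annotated genes had one. Of the 287 unmarked genes 195 had one, with a median signal of 39.2, and the median over all ranked peaks was 26.3. The 3 unmarked genes with the highest ranked signal were Y55F3BR.9, C05D2.15 and C06A1.9. Y55F3BR.9, a C/D-class gene with a P word, had a ranked signal of 109 at an IDR of 0.0828, with 85.1 in replicate 1 and 21 in replicate 2. C05D2.15, an H/ACA-class gene with the A and B words printed above, had 86.5 at an IDR of 0.0268, with 63.7 in replicate 1 and 24.9 in replicate 2. C06A1.9 had 83 at an IDR of 0.0174, with 47 in replicate 1 and 27.7 in replicate 2. For the first 2 of these genes the libraries differed by more than the highest ratio among marked genes, 2.2. The IDR selects for agreement of the libraries, so the ratios of marked genes are limited by that selection.

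Nearby small RNA genes touched few of these results. Another tRNA, small nuclear RNA, microRNA or ribosomal RNA gene lay within 500 bp of 9 snoRNA genes, of which 1, M163.14, was marked. No snoRNA gene had a tRNA gene within 200 bp. The summits at K07C10.2 and F39B2.14 lay closer to the 5′ end of another gene, 16 bp before K07C10.6 and 46 bp before tmem-107, than to that of the snoRNA gene, and which gene each belongs to cannot be told apart.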

How the data were processed

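Peaks came from ChIP-seq of 2 biological replicates of whole young adults, 1 group. The deposited lists are narrow peak files on ce11. Per the deposited README texts, the series lists derive from the alignments of both libraries and the replicate lists from 1 library each. Each also lists a further source file, shared with the tracks over control, whose content is not stated. No source used here states the aligner or the peak caller. The deposited signal column is the authors' peak signal without a stated scale. The deposited score column, which ends at a fixed maximum, was not used. The ranked lists carry the authors' −log10 of the IDR, converted here to IDR. The deposited peak offset gave the summit as start plus offset.

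Summits were assigned to genes of Ensembl release 115 with Python 3.11.15, numpy 2.4.6 and scipy 1.17.1, and figures were drawn with matplotlib 3.10.9. Introns and 5′ ends are those of protein-coding transcripts. Own upstream and narrow host promoter windows were 200 bp, windows around bodies 200 bp, and clusters joined bodies within 1000 bp. Sequences and word counts used the RefSeq assembly of the same build, and chromosome I sequence was not printed. Shares have exact Clopper-Pearson 95% intervals. No test was run, because the lists hold no counts and the design has 1 group. The rule for the members uses annotation alone, but that rule and the gene classes were chosen with earlier results of these data known. The genes named are the 12 with the highest conservative signal, the 4 highest among intronic, among antisense or other, and among intergenic genes and in clusters, all members of the clusters with most marked genes, the 3 highest unmarked genes by ranked signal, those marked in both replicate lists with the 5 highest library signals, the 4 with the farthest summits and those with a host promoter summit. Other genes named were chosen after their values were seen. The scripts were tested on simulated peaks and words.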

Additional observations from a re-analysis of the deposited data

How the results depend on the processing

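Of 65 alternatives to 12 results, 14 of them chosen after seeing the data, 47 left the value within its interval, or counts within 1.5 times and the median position within 1 SD of the replicate lists. Some of these 47 could not have moved, because they reuse the same genes and windows. They are the own upstream share under the wide host window and the host promoter share under a 500-bp own window. The intergenic share with hosts on either strand is another. Without replicate 1 and without replicate 2 in turn, marked genes ranged from 31 to 44 against 59, the intronic share from 6.99 to 9.09%, the intergenic share from 10.5 to 15.3%, the own upstream share from 6.99 to 9.09%, the host promoter share from 1.4 to 2.1%, the lone share from 9.67 to 13.7% and the clustered share from 4.35 to 6.52%. The median summit position ranged from -46.5 to -41 bp, the share under 100 bp from 22.6 to 31.2%, that with A and B words from 51.7 to 65.5% and that with a P word from 6.25 to 15.6%. With no extension of the body 8 genes were marked, and with 500 bp 64. The host promoter share was 6.29% in the combined list and 11.2% in the wide window. The B box share was 42.4% with GTTCNANNC. A length limit of 80 bp gave 50.9%, 1 mismatch in each word 44.3%, and an IDR of 0.1 gave 50% for the P word. No cause was tested. The intergenic share was above the intronic share in all lists run. No paired analysis was possible because both replicates belong to 1 group. Depth is unknown, and no untagged control was analysed here.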
